A study of Mus musculus with 15 samples.

Results

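The small proteoglycans and matricellular proteins of the liver's extracellular matrix are followed here across 3 diets through 9 of the 23420 gene symbols counted: the small leucine-rich proteoglycans Lum, Dcn and Bgn, the matricellular proteins Sparc, Thbs1, Thbs2 and Postn, and the fibre-forming glycoproteins Fbn1 and Fn1. They were chosen by symbol, with earlier results of these data known, and all 9 were found and passed the filter on low counts. RNA with polyA tails was sequenced from left liver lobes of male C57Bl/6J mice, an inbred strain, after the tissue had been pulverized. One group ate a base diet (BD, 4% fat), another a diet rich in fat (HFD, 31% fat), and the last a diet equally rich in fat but deficient in methionine, choline and folate (MCD), which is used to bring on steatohepatitis. Each group has 5 libraries. Every library, BD included, carries the label of the vehicle of the toxicology study (5% Alkmauls El-620, an emulsifier, in saline) and of 24 h after dosing, and no sample given tetrachloroethylene was analysed here. The labels state neither age nor length of feeding, and do not say that libraries are separate animals, which means that p-values reflect only how much these libraries vary. In bulk liver RNA, more cells of a type and more RNA per cell cannot be told apart.

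Matricellular proteins are secreted into the matrix but act mainly as regulators: they bind collagen, growth factors and integrins and change how cells attach and respond. Small leucine-rich proteoglycans sit on collagen fibrils, set their diameter and spacing, and bind TGF-beta. In a healthy liver these genes are expressed chiefly by stellate cells, portal fibroblasts and vessel walls, and their rise is a known feature of fibrosis. Fibronectin differs, because hepatocytes make the soluble plasma form in large amounts.

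Promoter windows from RefSeq (GRCm38.p6) were at hand for 5 of the 9 genes, namely Bgn, Fbn1, Postn, Sparc and Thbs2. Since most of the genes moved together, the 250 bases before the start were compared, and 7 motifs, spelled out beside their counts, were searched on both strands. The windows of Postn, Thbs2 and Bgn, which overlap no GENCODE exon, are shown to let the start regions of 3 genes that were all higher on MCD be read side by side. They lie at chr3:54360857-54361106 on the plus strand, chr17:14694263-14694512 on the minus strand and chrX:73483351-73483600 on the plus strand. Capitals mark the matches, and each window ends at the base before the start.
Postn: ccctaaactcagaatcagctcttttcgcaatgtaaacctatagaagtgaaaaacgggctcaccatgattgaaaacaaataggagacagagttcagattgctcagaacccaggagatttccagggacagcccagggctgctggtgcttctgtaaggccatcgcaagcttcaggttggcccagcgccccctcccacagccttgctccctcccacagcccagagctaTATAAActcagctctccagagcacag
Thbs2: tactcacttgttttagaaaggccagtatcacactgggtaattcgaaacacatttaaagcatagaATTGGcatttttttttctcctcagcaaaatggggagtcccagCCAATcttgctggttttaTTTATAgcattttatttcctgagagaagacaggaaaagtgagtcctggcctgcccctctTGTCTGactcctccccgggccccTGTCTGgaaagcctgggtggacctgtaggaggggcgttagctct
Bgn: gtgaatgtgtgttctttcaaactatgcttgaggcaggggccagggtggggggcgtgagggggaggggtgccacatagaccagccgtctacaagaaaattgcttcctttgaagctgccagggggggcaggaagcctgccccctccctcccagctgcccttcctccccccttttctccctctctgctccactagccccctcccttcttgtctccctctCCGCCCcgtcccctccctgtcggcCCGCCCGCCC

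No motif was common to all 3 windows. The windows of Sparc and Fbn1 are not shown: 238 and 250 of their 250 bases lie in GENCODE exons, inside the gene as GENCODE draws it, so positions in them count from the RefSeq start used and not from the outermost start. The Postn window held a TATA box (TATAAA) 26 to 21 bases before the start, a motif that 12.4% of all 32851 windows held. Thbs2 held it on the reverse strand, farther from its start. The SMAD element CAGACA occurred on the reverse strand in Thbs2 at 67 to 62 and 44 to 39 bases, and in Sparc at 36 to 31 bases, before the start. Of all windows 17.1% held that motif. Bgn held the GC box GGGCGG, on the reverse strand, at 34 to 29, 10 to 5 and 6 to 1 bases, the last pair overlapping, and Fbn1 held 1 at 185 to 180 bases, beside the GGA repeat GGAGGAGG, on the reverse strand, at 231 to 224 bases. GC boxes stood in 32.7% of all windows and GGA repeats in 7.39%. The CCAAT box was matched in Thbs2 at 186 to 182 bases on the reverse strand and 144 to 140 bases on the forward strand, and in 33.8% of all windows. Neither the AP-1 site TGANTCA (6.75% of all windows) nor the TEAD site GGAATG (12.6%) was matched in the windows of these 5 genes. The windows differed in base composition, from 40.4% GC in a second Postn window, which held no match, to 64.4% in Bgn, with a median of 52.4% over all windows. A match is a description of letters only.

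Libraries held 3704642 to 23131089 gene counts (median 10312311), and 3 counts corresponded to 0.130 to 0.810 CPM, the count scaled by library size. Values below are CPM with TMM factors, which correct for differences in composition between libraries. HFD replicate 2 stood apart from its group: on the first principal component, which held 37.1% of the variance, it lay at 28.4, against -12.7 to -0.42 for the other HFD libraries and 15.6 to 39.4 for MCD. The numbers in the labels run on from MCD to HFD and are far higher for BD, and an effect of anything that goes with them cannot be told apart from that of BD. The 9 hepatocyte markers summed to 117904 to 162142 CPM per library, most of it Alb, for albumin, with means of 95862 to 106390 CPM by diet. Another 7 averaged 650.4 CPM or more in every diet, and Ass1 averaged 2.47 to 9.49 CPM.

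Within a diet the 9 genes spanned a wide range of levels per length. In BD, mean levels in CPM per kilobase of exon were 204 ± 24.2 for Fn1, 30.0 ± 4.61 for Dcn, 20.9 ± 2.18 for Bgn, 17.4 ± 2.77 for Sparc and 4.63 ± 1.74 for Lum (SD, n = 5). The remaining genes lay lower on the same per-length scale, at 0.942 ± 0.271 for Postn, 0.481 ± 0.354 for Thbs1, 0.441 ± 0.145 for Thbs2 and 0.322 ± 0.093 for Fbn1. Bgn and Sparc, Postn and Thbs1, Thbs1 and Thbs2, and Thbs2 and Fbn1, neighbours in this order, overlapped in mean ± SD. On MCD the order was nearly the same, but Sparc, at 41.0 ± 9.76 CPM per kilobase, now stood level with Bgn at 38.2 ± 7.23. Exon lengths are unions of GENCODE exons, which the submitters may not have used. Fn1 alone made up 80.3% to 87.9% of the summed CPM of the 9 genes in BD, 80.8% to 87.5% in HFD and 63.0% to 81.0% in MCD. Without Fn1, BD libraries summed to 397 ± 53.98 CPM (SD, n = 5), HFD libraries to 469.9 ± 57.6 and MCD libraries to 758 ± 132.

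**Figure D1:**
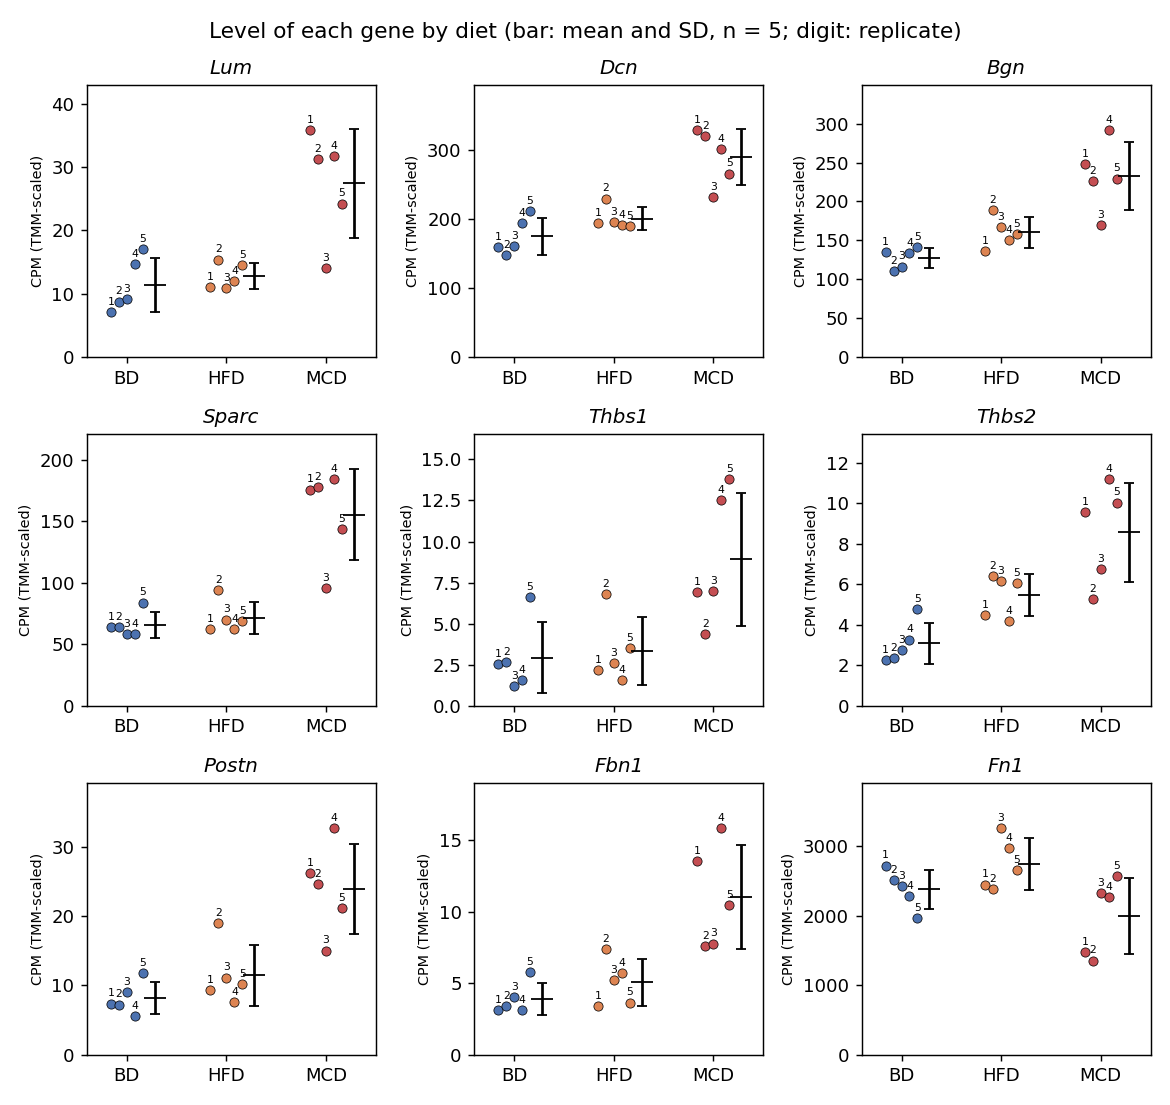
Level of each of the 9 genes in TMM-scaled CPM (vertical axis, from 0) by diet (horizontal axis), with 1 point per library, its replicate number, and the mean and SD of 5 libraries. Sparc lies between 95.5 and 184 CPM on MCD, against 58.3 to 83.9 on BD, while Fn1 overlaps across all diets.

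Between MCD and BD both the fat and the deficient nutrients differ. Of the 9 genes, 8 rose, by 0.73 to 1.51 on the log2 scale, and Fn1 did not pass the test. Of the 12193 genes tested 21.4% were called, 12.8% higher and 8.64% lower (1557 and 1053 genes). Without TMM factors the split was 2308 to 512, and the median of all genes shifted by 0.14. The median log2 fold change of the 9 genes was 1.24, against -0.03 over all genes tested. For 6 genes every MCD library lay above every BD library, an upward separation seen in 9.30% of all genes. Adjusted p-values below are from edgeR's quasi-likelihood test with Benjamini-Hochberg adjustment over all genes tested.

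Among the proteoglycans, Dcn, which encodes decorin, a binder of collagen and TGF-beta (chromosome 10, 97479609 to 97518143), was the most abundant. Its levels were 159, 148, 161, 195 and 212 CPM in BD replicates 1 to 5, 195, 229.7, 195, 192 and 190.3 in HFD, and 329, 320.2, 232, 302 and 266 in MCD. All 5 MCD libraries lay above all other libraries, but MCD replicate 3 only just above HFD replicate 2, and the other diets overlapped. The rise from BD to MCD was 0.73 ± 0.11 on the log2 scale (SE, adjusted p = 2.29e-04), the smallest of the 8. Its coefficient of variation was 15.4% in BD, 8.27% in HFD and 13.9% in MCD.

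Lum encodes lumican, a keratan sulphate proteoglycan of collagen fibrils, and lies next to Dcn in the genome (chromosome 10, 97565128 to 97572703). It stood at 7.09, 8.77, 9.13, 14.6 and 17.0 CPM in BD, 11.04, 15.4, 10.9, 11.97 and 14.6 in HFD, and 35.8, 31.3, 14.0, 31.7 and 24.2 in MCD. In Lum 4 MCD libraries lay above all others, and MCD replicate 3 lay within the range of both other diets. Lum rose by 1.23 ± 0.25 (log2, SE, adjusted p = 0.00214). Whether that exceeds the 0.73 of Dcn was not tested. Over the 15 libraries Lum and Dcn had the highest correlation of log2 CPM of the 36 pairs of genes (Pearson r = 0.961, and 0.910 after subtracting diet means), given as a description.

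Bgn, for biglycan (chromosome X, 73483602 to 73495933), a proteoglycan that also signals through Toll-like receptors when released from the matrix, stood at 135, 110.1, 116, 134 and 141 CPM in BD. In HFD its levels were 136, 189, 167, 150.1 and 158 CPM, and in MCD 248, 226, 169, 291 and 229. MCD lay wholly above BD, and MCD replicate 3 fell within the HFD range. Bgn rose by 0.87 ± 0.13 from BD to MCD (log2, SE, adjusted p = 1.16e-04).

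Sparc (chromosome 11, 55394500 to 55423183) encodes a collagen-binding glycoprotein, also called osteonectin, that loosens cell contacts with the matrix. It had the smallest p-value of the 9 genes against BD. The levels were 64.1, 64.1, 58.3, 58.5 and 83.9 CPM in BD, 62.0, 94.2, 70.1, 62.4 and 68.6 in HFD, and 176, 178, 95.5, 184 and 144 in MCD. All MCD libraries lay above all others, but MCD replicate 3 lay only just above HFD replicate 2. Sparc rose by 1.24 ± 0.17 (log2, SE, adjusted p = 8.43e-05).

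Postn, for periostin (chromosome 3, 54361109 to 54391037), an integrin ligand of remodelling tissue, rose by 1.51 ± 0.26 (log2, SE, adjusted p = 5.83e-04), the largest change of the 9. Its levels were 7.38, 7.22, 9.05, 5.54 and 11.8 CPM in BD, 9.27, 19.0, 11.1, 7.62 and 10.2 in HFD, and 26.2, 24.7, 15.03, 32.7 and 21.2 in MCD. MCD lay wholly above BD, and HFD replicate 2 lay above MCD replicate 3.

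The thrombospondins Thbs1 and Thbs2 are close relatives that bind CD47 and CD36, restrain vessel growth and, in the case of Thbs1, activate latent TGF-beta. Thbs2 (chromosome 17, 14665500 to 14694235) stood at 2.27, 2.37, 2.76, 3.27 and 4.76 CPM in BD, 4.47, 6.41, 6.16, 4.198 and 6.06 in HFD, and 9.58, 5.29, 6.76, 11.2 and 10.04 in MCD. MCD lay wholly above BD, and the rise was 1.41 ± 0.23 (log2, SE, adjusted p = 3.59e-04). Its HFD values lay between those of the other diets, overlapping both.

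Thbs1 (chromosome 2, 118111876 to 118127133) was the noisiest of the genes, with a coefficient of variation of 73.7% in BD, 62.0% in HFD and 45.4% in MCD. It stood at 2.55, 2.68, 1.21, 1.56 and 6.60 CPM in BD, 2.19, 6.79, 2.60, 1.54 and 3.50 in HFD, and 6.91, 4.36, 6.98, 12.5 and 13.8 in MCD. BD replicate 5 and HFD replicate 2 lay above MCD replicate 2, the lowest MCD library. Thbs1 rose by 1.48 ± 0.47 (log2, SE, adjusted p = 0.0375). The call was lost in 8 of 27 alternatives, 6 of which dropped a single library, namely BD replicate 1, 2, 3 or 4 or MCD replicate 4 or 5 (adjusted p = 0.0624 to 0.0886). Without BD replicate 5 the change was 2.20 (adjusted p = 0.00392). Counts were few, at 200 reads over the BD libraries and 697 over the MCD libraries. Of the BD reads 140 came from replicate 5, and the other BD libraries held 9 to 26 each. Beside it, 6 of 12 immediate early genes, which respond within minutes to handling or injury, were called higher on MCD than BD, against 12.8% of all genes. Their summed level was 131 to 241 CPM in BD and 163 to 407 in MCD, and their part in the result was not tested. Platelet markers summed to 3.41 to 4.82 CPM in BD and 3.53 to 4.58 in MCD, with 7 of 8 averaging under 1 CPM.

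Fbn1, for fibrillin-1 (chromosome 2, 125300594 to 125507993), forms the microfibrils that hold latent TGF-beta. Its levels were 3.12, 3.40, 4.05, 3.12 and 5.80 CPM in BD, 3.37, 7.36, 5.21, 5.69 and 3.64 in HFD, and 13.5, 7.57, 7.77, 15.9 and 10.4 in MCD. All MCD libraries lay above all others, but MCD replicate 2 lay only just above HFD replicate 2. Fbn1 rose by 1.44 ± 0.25 (log2, SE, adjusted p = 5.76e-04).

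Fn1, for fibronectin (chromosome 1, 71585520 to 71653200), was not called in any comparison. Its levels were 2724, 2515, 2432, 2280.4 and 1968 CPM in BD, 2450.1, 2384, 3267, 2977 and 2655 in HFD, and 1477, 1356, 2327, 2276 and 2571 in MCD. MCD replicates 1 and 2 were the lowest of all 15 libraries, and the other 3 MCD libraries lay within the BD range. Against BD the log2 change on MCD was -0.25 (95% interval -0.59 to 0.08, adjusted p = 0.283), and against HFD -0.46 (95% interval -0.79 to -0.12, adjusted p = 0.118). Reads per gene symbol do not separate the plasma form from the cellular form that fibroblasts make. GENCODE places entries on the opposite strand over Fn1, Thbs1 and Fbn1, and without the strand option of the counting their reads cannot be told apart from those of the 3 genes.

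**Figure D2:**
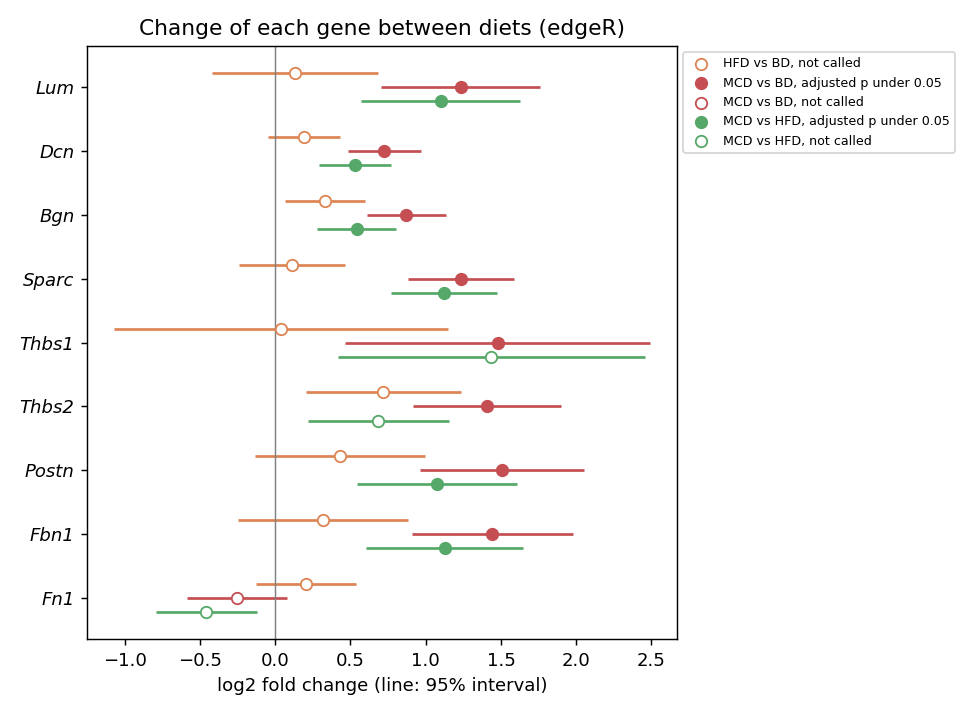
Log2 fold change (horizontal axis) of each gene (vertical axis) in the 3 comparisons of diets, with 95% intervals from edgeR; filled points have an adjusted p under 0.05 over all genes. The 8 genes other than Fn1 are filled for MCD against BD, and every point for HFD against BD is open.

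HFD against BD sets 31% against 4% fat. None of the 9 genes was called by edgeR, DESeq2 or limma-voom, where edgeR called 6.92% of all genes, 3.65% higher and 3.27% lower. No gene of the 9 had all HFD libraries above all BD libraries, which 3.49% of all genes had. All 9 point estimates were above 0, with a median of 0.20 against -0.01 over all genes tested. At an unadjusted p under 0.05 were 2 of the 9 genes, against 20.2% of all genes: Thbs2 at 0.72 (95% interval 0.20 to 1.23, edgeR unadjusted p = 0.00887, adjusted p = 0.0907) and Bgn at 0.33 (95% interval 0.07 to 0.59, edgeR unadjusted p = 0.0165, adjusted p = 0.134). Thbs2 passed at adjusted p = 0.0206 without BD replicate 5. For Sparc the interval was -0.24 to 0.47, for Dcn -0.05 to 0.43, for Lum -0.42 to 0.68 and for Fn1 -0.13 to 0.54. Each spans 0 and reaches further above it than below, with the least room for a fall in Dcn. Postn stood at 0.43 (-0.13 to 0.99), Fbn1 at 0.32 (-0.25 to 0.88) and Thbs1 at 0.04 (-1.07 to 1.15). These estimates moved with HFD replicate 2 and BD replicate 5, in opposite directions. Without HFD replicate 2, Postn was at 0.16, Fbn1 at 0.14, Lum at 0.06, Sparc at 0.00 and Thbs1 at -0.45. Without BD replicate 5, Postn was at 0.62, Fbn1 at 0.54, Lum at 0.35, Sparc at 0.22 and Thbs1 at 0.77.

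MCD against HFD compares diets of equal fat that differ in methionine, choline and folate. Sparc rose by 1.12 ± 0.17, Fbn1 by 1.13 ± 0.25, Lum by 1.10 ± 0.25, Postn by 1.08 ± 0.25, Bgn by 0.54 ± 0.13 and Dcn by 0.53 ± 0.11 (log2, SE, edgeR adjusted p = 0.00395, 0.0209, 0.0271, 0.0311, 0.0258 and 0.0181 in turn). These 6 of 9 genes compare with 3.15% of all genes called, 2.22% higher and 0.927% lower. All 9 genes had an unadjusted p under 0.05, as did 19.9% of all genes. Thbs1, at 1.44 ± 0.48, and Thbs2, at 0.69 ± 0.22, were not called (adjusted p = 0.111 and 0.0971). For Dcn, Sparc and Fbn1 all MCD libraries lay above all HFD libraries, a separation seen in 2.49% of all genes. Each gap was narrow, from HFD replicate 2 to the lowest MCD library. It ran from 229.7 to 232 CPM for Dcn, 94.2 to 95.5 for Sparc and 7.36 to 7.57 for Fbn1. This comparison and the one with BD share the MCD libraries.

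The number called between MCD and HFD depended on single libraries, while the sizes moved less. Without HFD replicate 2, 8 genes were called, Thbs1 and Thbs2 included (adjusted p = 0.0190 and 0.0466). Without HFD replicate 4, HFD replicate 5 or MCD replicate 1, Sparc alone was called, and without HFD replicate 1 or MCD replicate 4, Dcn and Sparc. Without HFD replicate 3, Dcn, Sparc and Fbn1 were called, and without MCD replicate 2, Dcn, Bgn, Sparc, Thbs2 and Fbn1. Over all 27 alternatives the log2 change of Sparc stayed between 1.06 and 1.38 and was called each time, and that of Dcn stayed between 0.49 and 0.66 with 24 calls. Over the same alternatives Fbn1 was called 21 times, Lum and Bgn 19 and Postn 18.

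The 8 genes other than Fn1 tended to move together from library to library as well as between diets, though less so within MCD. In BD, replicate 5 was highest of its diet for all 8 genes other than Fn1 and lowest for Fn1. In HFD the same held for replicate 2. In MCD the extremes were split. Replicate 4 was highest for 5 genes, replicate 1 for Lum and Dcn, and replicate 5 for Thbs1 and Fn1. Replicate 3 was lowest for Lum, Dcn, Bgn, Sparc and Postn, and replicate 2 for Thbs1, Thbs2, Fbn1 and Fn1. Over 15 libraries the 28 pairs among the 8 genes had Pearson r from 0.709 to 0.961 (median 0.872) in log2 CPM, and from 0.284 to 0.910 (median 0.628) after subtracting diet means. For the 8 pairs of Fn1 with another gene, r ran from -0.705 to -0.249, and from -0.704 to 0.097 after subtracting diet means. These pairs share libraries and depth, were not set against pairs of other genes, and are a description.

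**Figure D3:**
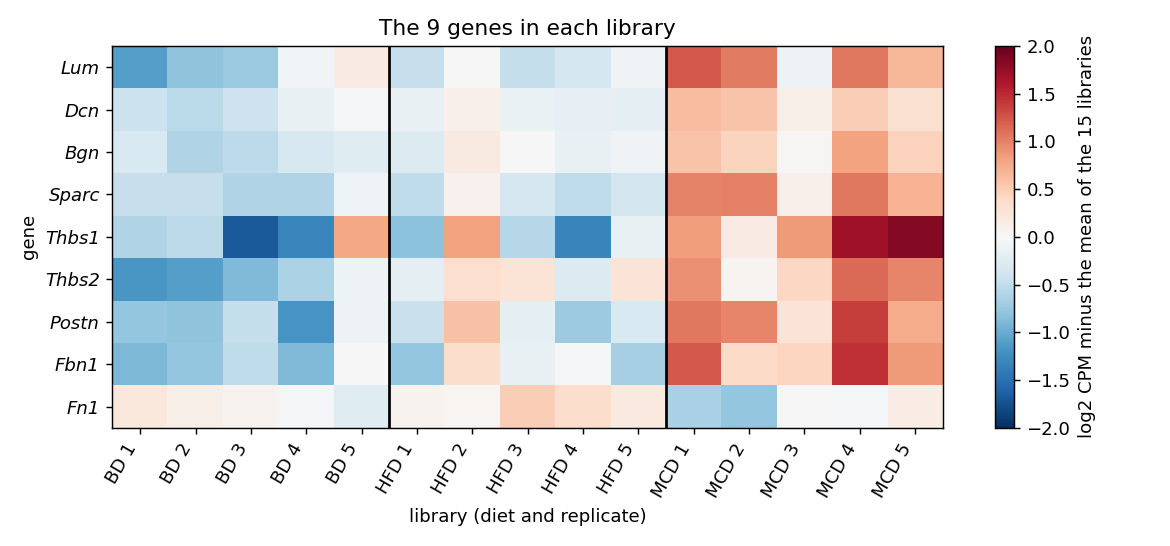
Log2 CPM of each gene (rows) in each library (columns, by diet and replicate) minus the gene's mean over the 15 libraries, from blue (lower) to red (higher). BD replicate 5 and HFD replicate 2 are the reddest columns of their diets for 8 genes, MCD replicate 3 is the palest MCD column for Lum, Dcn, Bgn, Sparc and Postn, and Fn1 is bluest in MCD replicates 1 and 2.

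Markers of several other cell types were also called higher on MCD than BD, as were 12.8% of all genes tested (8.64% lower). Against HFD, 2.22% of all genes were called higher on MCD, and 3.65% were called higher on HFD than BD. Of 9 tested myofibroblast markers, among them Col1a1, Col3a1 and Acta2, all 9 were called higher on MCD than BD, and 5 were higher than on HFD. Their summed level (10 genes) was 76.3 to 110.1 CPM in BD, 93.0 to 220.5 in HFD and 207 to 537 in MCD. HFD replicate 2 was the highest HFD library at 220.5 and MCD replicate 3 the lowest MCD library at 207. Markers of quiescent stellate cells were higher on MCD than BD in 6 of 10 cases, with sums of 277 to 331 CPM in BD and 349.9 to 414 in MCD. Portal fibroblast and mesothelial markers were higher in 5 of 7. Of 5 smooth muscle markers tested, Acta2 and Tagln were higher, both of which also stand in the myofibroblast list, and Myh11, Smtn and Des were not called (adjusted p = 0.383, 0.317 and 0.287). Recruited macrophage markers were higher in 9 of 9 tested, with sums of 31.4 to 36.8 CPM in BD, 44.1 to 109.8 in HFD and 76.9 to 155 in MCD. Markers of Kupffer cells, the resident macrophages, were higher on MCD than BD in 6 of 7 cases and on HFD than BD in 2, with sums of 214 to 388 CPM in BD, 331 to 466 in HFD and 388 to 547 in MCD. Endothelial markers were higher on MCD than BD in 3 of 10 cases, with sums of 365 to 448 CPM in BD and 415 to 475 in MCD. Of 9 hepatocyte markers, 4 were lower on MCD than BD and none higher. Of 5 cholangiocyte markers tested, Spp1 was higher on MCD than BD and Sox9 lower. Within diets the lists differed. BD replicate 5 had the highest BD sums of myofibroblast and Kupffer markers (110.1 and 388 CPM) but the lowest of quiescent stellate and recruited macrophage markers (277 and 31.4). MCD replicate 4 had the highest MCD sums of myofibroblast and quiescent stellate markers (537 and 414) but the lowest of Kupffer markers (388). Ecm1, Eln, Eng, Fbln2 and Spp1 stand both in a marker list and in a list of related genes. The part of these cell types in the results was not tested.

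**Figure D4:**
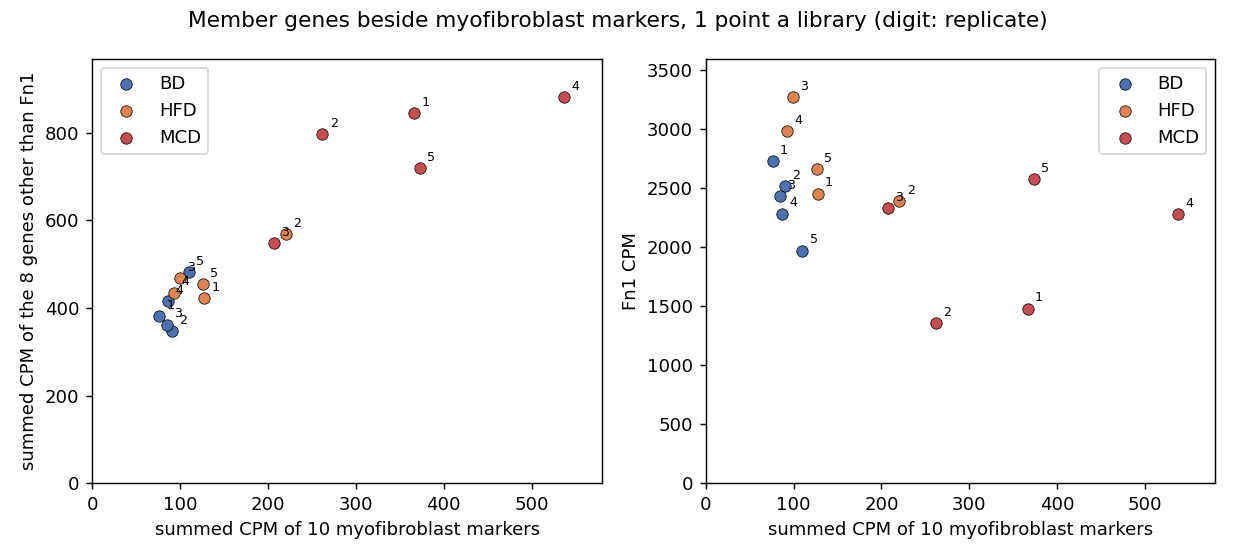
Summed CPM of the 8 genes other than Fn1 (left) and CPM of Fn1 (right) on the vertical axes against the summed CPM of 10 myofibroblast markers on the horizontal axes, with 1 point per library, coloured by diet. HFD replicate 2, at 220.5 CPM of markers, lies beside MCD replicate 3, at 207, and Fn1 is lowest in MCD replicates 1 and 2.

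The 8 genes below were the most like the mean pattern of the 9 genes, out of 11891 other genes averaging at least 1 CPM, by Pearson r of log2 CPM over 15 libraries. They were Itgax (0.977), an integrin of myeloid cells, Rab8b (0.965), a vesicle-traffic GTPase, Abcc1 (0.962), an exporter, Tnfaip3 (0.958), a brake on NF-kappaB, the collagenase Mmp13 (0.956), the collagen Col5a2 (0.953), the cytoskeletal gene listed as Epb4.1l2 (0.950) and the collagen Col3a1 (0.949). After subtracting diet means their r ran from 0.774 for Col3a1 to 0.899 for Abcc1.

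Other genes of the same families and their partners were read from 5 lists with 99 genes, 74 of them tested. The lists, too, were chosen with earlier results of these data known. Between MCD and BD 31 were called higher and 4 lower, where 12.8% of all genes tested were called higher and 8.64% lower. For MCD against HFD those shares were 2.22% and 0.927%, and for HFD against BD 3.65% and 3.27%. They apply to each list below. The microfibril and fibulin list, partners of Fbn1, had 12 of 16 tested genes higher and 0 lower, with a median of 1.14. In that list Eln, for elastin, rose from 3.50 ± 0.437 to 9.43 ± 3.03 CPM (log2 1.45 ± 0.26 SE, adjusted p = 7.05e-04). Ltbp2, a latent TGF-beta binding protein, rose by 1.54 ± 0.29 (log2, SE, adjusted p = 8.50e-04) and Emilin2, an elastic fibre protein, by 1.38 ± 0.23 (adjusted p = 3.97e-04). Against HFD 4 of the 16 were higher, namely Eln (1.30), Ltbp2 (1.06), Fbln5 (0.86), a fibulin of elastic fibres, and Efemp2 (0.84), the last named after its value was seen. Between HFD and BD only Emilin2 was called in that list (1.04 ± 0.25, adjusted p = 0.0136).

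Of the other matricellular genes 6 of 12 tested were higher on MCD than BD and 0 lower. Tnc, for tenascin-C, a glycoprotein of injured tissue, rose from 1.153 ± 0.494 to 7.17 ± 2.09 CPM (log2 2.53 ± 0.31 SE, adjusted p = 3.33e-05). Spp1, for osteopontin, rose by 1.44 ± 0.41 (adjusted p = 0.0253) and Fstl1, a relative of Sparc, by 1.28 ± 0.24 (adjusted p = 0.00102). Tgfbi, a collagen-binding protein that TGF-beta induces and a relative of Postn, was called in all 3 comparisons, at 0.37 for HFD against BD, 0.94 for MCD against BD and 0.56 for MCD against HFD (adjusted p = 0.0345, 9.89e-06 and 0.00828). Tnc and Fstl1 were also higher than on HFD (1.44 and 1.20, adjusted p = 0.0132 and 0.0140). Ctgf and Cyr61, matricellular genes induced through YAP, were not called in any comparison, with MCD against BD at -0.13 and 0.31 (adjusted p = 0.883 and 0.393), and were chosen for mention after their values were seen.

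Of the other small leucine-rich proteoglycans 3 of 8 tested were higher on MCD than BD. Prelp, which anchors basement membranes to collagen, rose from 75.4 ± 9.64 to 128.2 ± 15.8 CPM (log2 0.77 ± 0.10 SE, adjusted p = 7.09e-05), and it was also higher than on HFD (0.43 ± 0.10, adjusted p = 0.0311). Omd, for osteomodulin, rose by 1.55 ± 0.22 on MCD (adjusted p = 8.43e-05) and by 1.08 ± 0.22 on HFD (adjusted p = 0.00507) against BD. Ecm2 rose by 1.16 ± 0.28 on MCD against BD (adjusted p = 0.00566). Tsku, for tsukushi, a secreted protein of hepatocytes, was called on HFD alone against BD (0.77 ± 0.20, adjusted p = 0.0287), and on MCD it stood at 0.45 (adjusted p = 0.130).

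Receptors split. On MCD 7 of 22 tested receptor genes were higher than on BD and 4 lower, against 12.8% and 8.64% of all genes. Cd36, a thrombospondin receptor and fatty acid carrier, rose from 74.6 ± 20.5 to 278 ± 96.5 CPM (log2 1.90 ± 0.49 SE, adjusted p = 0.0151). Tlr2, a receptor for biglycan, rose by 1.49 ± 0.26 (adjusted p = 4.30e-04) and the integrin Itga8 by 0.96 ± 0.16 (adjusted p = 3.26e-04), and Itga8 was also higher than on HFD (0.73 ± 0.16, adjusted p = 0.0177). Cd47, the other thrombospondin receptor named above, and Tlr4, another Toll-like receptor, were not called on MCD against BD. Their changes were -0.03 and 0.41 (edgeR adjusted p = 0.816 and 0.184), and both were chosen for mention after their values were seen. Itga5, the alpha chain of the main fibronectin receptor, stood at 52.03 ± 6.15 CPM in BD and fell to 34.9 ± 3.25 CPM on HFD and 35.0 ± 2.98 on MCD (log2 changes -0.58 and -0.57, adjusted p = 0.00118 and 5.06e-04). Sdc1, a heparan sulphate proteoglycan of hepatocytes, changed by -0.53 on HFD and -0.68 on MCD against BD (adjusted p = 0.0466 and 0.00431). On HFD against BD, Itga4, Ddr2, a collagen receptor, and Sdc3 rose by 0.69 ± 0.18, 0.50 ± 0.15 and 0.49 ± 0.12 (adjusted p = 0.0244, 0.0442 and 0.0215). These 3 genes were also called higher on MCD against BD, at 0.79, 0.89 and 0.65 (edgeR adjusted p = 0.00333, 2.77e-04 and 0.00106).

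Of 16 TGF-beta genes, all tested, 3 were higher on MCD than BD and none lower, not far from the 12.8% and 8.64% of all genes. The receptors Tgfbr2 and Tgfbr1 rose by 0.61 ± 0.12 and 0.36 ± 0.10 (adjusted p = 0.00156 and 0.0110), and Tgfbr2 also on HFD against BD (0.49 ± 0.12, adjusted p = 0.0210). Between MCD and HFD edgeR called 0 of these 16, against 3.15% of all genes.

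**Figure D5:**
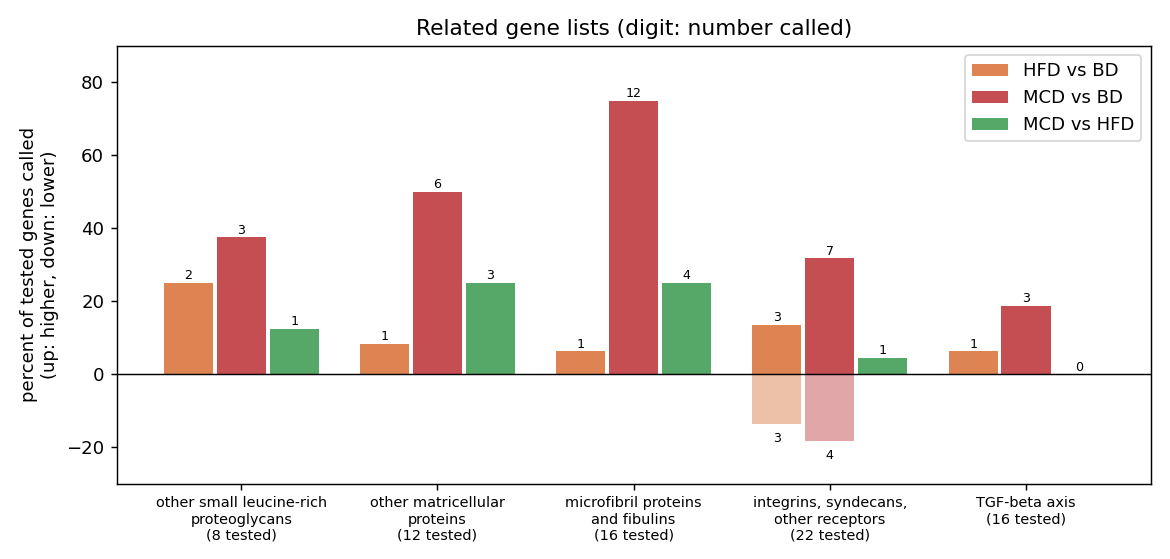
Percent of tested genes (vertical axis) called higher (upward bars) or lower (downward, paler bars) in 5 related gene lists (horizontal axis) for the 3 comparisons of diets, with the number called on each bar. The microfibril and fibulin list has 12 of 16 genes higher on MCD than BD, and lower calls occur only among the receptors.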

How the data were processed

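Libraries were made from polyA RNA with a kit that keeps strand, per the labels' protocols. The authors deposited raw counts, 1 table for each library; its last 5 lines tally reads assigned to no gene and were left out throughout (12.7% to 17.0% of uniquely placed reads fell outside genes). Trimmomatic, TopHat2 2.0.13, HTSeq and DESeq2 with build GRCm38/mm10 are named in the submitters' processing notes. Which annotation, strand option and overlap mode served for counting is not given in the sources used here.

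The tests were run in edgeR 4.0.16 (R 4.3.3) with TMM factors, filterByExpr by diet (minimum count 10, minimum total 15), 12193 genes, 1 robust quasi-likelihood fit over 15 libraries, two-sided tests, adjusted p under 0.05 over all genes tested. The procedure was tested on simulated data. Fold changes are log2, with SE taken as their size over the root of F. Likeness used log2 CPM with a prior count of 2. Alternatives covered DESeq2 1.42.0, limma-voom (limma 3.58.1), scalings, filters, thinning, a covariate and leaving out libraries. Replicate pairs differed beyond sampling noise, so each library counted once. Positions are from GENCODE M21 (GRCm38). Genes named are the 9 members, up to 3 rises and 2 falls per related list and comparison among called genes of at least 1 CPM, and the 8 genes most like the members. A gene that this rule also names is not reported here. The members and lists were chosen with earlier results of these data known.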

Additional observations from a re-analysis of the deposited data

Results flagged for a closer look

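Of 27 groups of 5 libraries (9 genes in 3 diets), 4 had 1 library far from the other 4 of its diet, and in each the library was the highest. The rule was Dixon's, the gap to the nearest library over the range of the group, applied to CPM without logs. Chance flags about 1 in 20 single groups if values are normally distributed, which was not tested. The 9 genes also share libraries, so the 27 groups are not independent. All 4 flags fell on HFD replicate 2 or BD replicate 5. HFD replicate 2 was high for Dcn at 229.7 CPM and for Sparc at 94.2 CPM. BD replicate 5 was high for Sparc at 83.9 CPM and for Thbs1 at 6.60 CPM.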

How the results depend on the processing

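For MCD against BD the 8 genes stayed above 0 in all 27 alternatives, and 7 of them were called each time. For Thbs1 19 of 27 kept the call. It was lost when non-unique alignments entered as a covariate (edgeR adjusted p = 0.149) and without a count filter (0.0644) besides the libraries named above. Non-unique alignments per gene count ran from 1.49 to 2.80 in BD, 1.15 to 2.53 in HFD and 1.19 to 1.66 in MCD. BD replicate 5 was the highest library and HFD replicate 2 the lowest. The covariate thus goes partly with diet, and the 2 effects cannot be fully told apart. Members called ranged, with 1 library left out, from 7 to 8 for MCD against BD, from 0 to 1 for HFD against BD and from 1 to 8 for MCD against HFD (8, 0 and 6 with all libraries, in that order). For MCD against HFD the covariate left 2 members, 4 were called with only those diets in the fit, and 8 without HFD replicate 2 and MCD replicate 3. HFD replicate 2 was the highest HFD library for 8 members, and MCD replicate 3 the lowest MCD library for 5. Leaving out both therefore widens the difference between these diets and is no independent check. All genes called there fell from 271 higher and 113 lower to 56 and 18 without HFD replicate 4, and rose to 839 and 409 without HFD replicate 2. Genes called over the 5 related lists were 11 for HFD against BD (3 to 14 with 1 library left out, and 4 without HFD replicate 2 and MCD replicate 3), 35 for MCD against BD (31 to 38) and 9 for MCD against HFD (2 to 25, with 4 under the covariate and 26 without HFD replicate 2 and MCD replicate 3). Uncalled changes of 2 genes on HFD against BD turned sign. Thbs1, at 0.04, was at -0.0878 by limma-voom, -0.00422 with the covariate, -0.02, -0.18 and -0.10 without BD replicates 2, 3 and 4, and -0.45 when HFD replicate 2 was left out (-0.453 to 0.767 with 1 library left out). Leaving out both HFD replicate 2 and MCD replicate 3 gave -0.465. Sparc was then at -0.00601 (0.00102 to 0.222 with 1 library left out). Omitting TMM factors changed the split of all genes from 445 higher and 399 lower to 589 and 297 on HFD against BD, and to 411 and 67 on MCD against HFD. The cause was not tested. No paired analysis was possible because replicate numbers follow the order of deposit and pair nothing. At a prior count of 0.5 Loxl2 took the place of Mmp13 among the 8 genes most like the members. Thbs1, Thbs2 and Fbn1 had the fewest reads, 167 to 285 over the 5 libraries of BD or of HFD. Thinned to the shallowest library, all 3 were still called for MCD against BD (adjusted p = 0.0159, 7.62e-04 and 7.72e-04).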

Other observations

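The gene most like each member over the 15 libraries, by Pearson r of log2 CPM with a prior count of 2, is given as a description. For Lum it was Fbln5 (0.966), a fibulin of elastic fibres, and for Postn it was Lbh (0.975), a transcription cofactor. Dcn and Sparc shared Igfbp7 (0.958 and 0.955), a secreted binder of growth factors, although Dcn was nearest to Emp1 (0.959) with a prior count of 5. Bgn was nearest to Itgax (0.967), Thbs1 to Tnfaip3 (0.933), Thbs2 to Slc8a1 (0.952), a sodium-calcium exchanger, and Fbn1 to the gene listed as Epb4.1l2 (0.948). Fn1 was nearest to the gene listed as Epb4.1 (0.966), a cytoskeletal protein.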
